A study of Caenorhabditis elegans with 36 samples.

Results

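Small RNAs mapping to 10 tubulin genes of *Caenorhabditis elegans* are described here, out of 31106 features counted in each library. They were chosen by name, for where they are known to act, and form a group of 5 germline and embryonic genes (*tba-1*, *tba-2*, *tbb-1*, *tbb-2* and *tbg-1*) and a group of 5 genes used mainly in somatic cells (*mec-7*, *mec-12*, *tba-4*, *tbb-4* and *tbb-6*). All 10 matched a feature by its identifier. Small RNAs of 18 to 30 nt were sequenced from whole worms, so the values say how many small RNAs a gene carried and not how much messenger RNA it made. The names of the groups, germline and somatic, are therefore background that these libraries cannot check, and of the somatic genes only *mec-7*, *mec-12* and *tbb-4* are known for neurons.

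Alpha- and beta-tubulins pair into the dimers from which microtubules are built, and gamma-tubulin seeds them. The *C. elegans* germline and early embryo draw their tubulin from a few broadly active genes, while touch receptor neurons and ciliated neurons use tubulins of their own. Short 22G-RNAs are copied from many germline messages and loaded into Argonaute proteins: some classes, such as those bound by CSR-1, sit on expressed germline genes, and others, such as those bound by WAGO Argonautes, silence their targets. HRDE-1 is the germline nuclear Argonaute that carries silencing between generations. MUT-2 adds the tails that template WAGO-class 22G-RNAs, and HRDE-2 and SIMR-1 are germ granule proteins that act in the same small RNA pathways.

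Every strain carried the tagged allele *hrde-1(tor125[GFP::3xFLAG::hrde-1])*, including the strain called wild-type here, so no library came from animals with an untagged HRDE-1. The mutants added *hrde-2(qe20)* (the gene is also named *enri-3*), *simr-1(cmp36)*, *mut-2(ne298)*, *mut-2(ne298)* with *hrde-2(qe20)*, or *simr-1(cmp36)* with *mut-2(cmp306)*, and the last pair of strains are called the *hrde-2* double mutant and the *simr-1* double mutant below. Setting the *simr-1* double mutant against *mut-2* therefore also set one *mut-2* allele against another. About 100000 adults, grown for 68 hours at 20 °C, were lysed per replicate, RNA of part of each lysate gave the input, and small RNAs bound to HRDE-1 were recovered by immunoprecipitation (IP) from the remainder. With 3 replicates of 6 genotypes there were 36 libraries. All values are from pooled whole animals, in which fewer germ cells and fewer small RNAs per germ cell cannot be told apart.

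Counts on genes ran from 4275760 to 17448124 per library, and levels are given as RPM, counts scaled to a library total of 1000000 on genes. At these depths 1 RPM stands for between 4.28 and 17.4 counts. Features of rRNA, tRNA, snRNA and snoRNA took 8.31% to 34.9% of the input counts and 1.17% to 3.19% of the IP counts. The tables of wild-type replicate 2, input and IP, carry the number of replicate 1 in their headers, and the label was kept. A suffix in the library name marked all 18 libraries of the 3 *mut-2* strains, wild-type replicate 2 and *hrde-2* replicate 1, and what it stands for is not given in the sources used here.

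The genes lie apart in the genome (WBcel235, as annotated in WormBase WS258), and each value below is a sum over the exons of one gene. The alpha-tubulin genes *tba-1* (WBGene00006528, chrI:9785778-9787624) and *tba-2* (WBGene00006529, chrI:12964674-12966876) are both on chromosome I. The beta-tubulin genes *tbb-1* (WBGene00006536, chrIII:10740868-10742461) and *tbb-2* (WBGene00006537, chrIII:4015769-4017643) and the gamma-tubulin gene *tbg-1* (WBGene00006540, chrIII:9626532-9629154) are on chromosome III. Of the touch receptor tubulins, the beta-tubulin *mec-7* (WBGene00003171, chrX:7774859-7776689) is on X and the alpha-tubulin *mec-12* (WBGene00003175, chrIII:3131574-3139234) on III. The alpha-tubulin *tba-4* (WBGene00006530, chrII:10918706-10920202), the ciliary beta-tubulin *tbb-4* (WBGene00006538, chrX:9434452-9436893) and the divergent beta-tubulin *tbb-6* (WBGene00006539, chrV:12261804-12263368) complete the set. Exons of *tbg-1* overlap those of *hlh-11*, and exons of *mec-7* overlap those of *deg-1*, and because strand was not used in counting, reads of each pair cannot be told apart. Tubulin genes resemble each other in sequence, and how many reads were shared between paralogs was not tested, so the split of counts within the alpha- and within the beta-tubulins is uncertain.

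In the wild-type inputs the germline tubulins carried far more small RNA than the somatic ones. Per kilobase of exon, *tbb-1* stood first at 199 ± 24.2 RPM per kb (SD, n = 3), above 98.3% of protein-coding genes. The next levels were 72.6 ± 11.5 RPM per kb for *tba-2*, 63.5 ± 8.15 for *tbb-2* and 57.7 ± 13.1 for *tba-1*, and the replicates of each neighbouring pair among these genes overlapped. The gamma-tubulin *tbg-1* followed at 21.9 ± 4.01 RPM per kb and the somatic *tbb-6* at 11.98 ± 2.44 RPM per kb, each without overlap with the gene above it. The other somatic genes were low: *tba-4* stood at 3.15 ± 0.787, *mec-7* at 1.89 ± 0.352, *mec-12* at 1.23 ± 0.405 and *tbb-4* at 0.774 ± 0.328 RPM per kb. Of these, *mec-7*, *mec-12* and *tbb-4* overlapped with their neighbours in the order. In the wild-type IP libraries *tbb-1* was again first, at 38.2 ± 9.07 RPM per kb, and *tbb-6* followed at 21.2 ± 1.82 RPM per kb. Its replicates overlapped with those of the next gene, *tba-1*, at 17.8 ± 9.23 RPM per kb, which overlapped with *tba-2* at 13.5 ± 2.26. Below them *tbg-1* (8.13 ± 0.902 RPM per kb) and *tbb-2* (7.91 ± 2.64 RPM per kb) overlapped, so *tbb-2* stood lower in the order than in the inputs. *mec-12*, *tba-4* and *mec-7* were each under 1 RPM per kb, each overlapping with the next of these, and *tbb-4* was last.

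**Figure D1:**
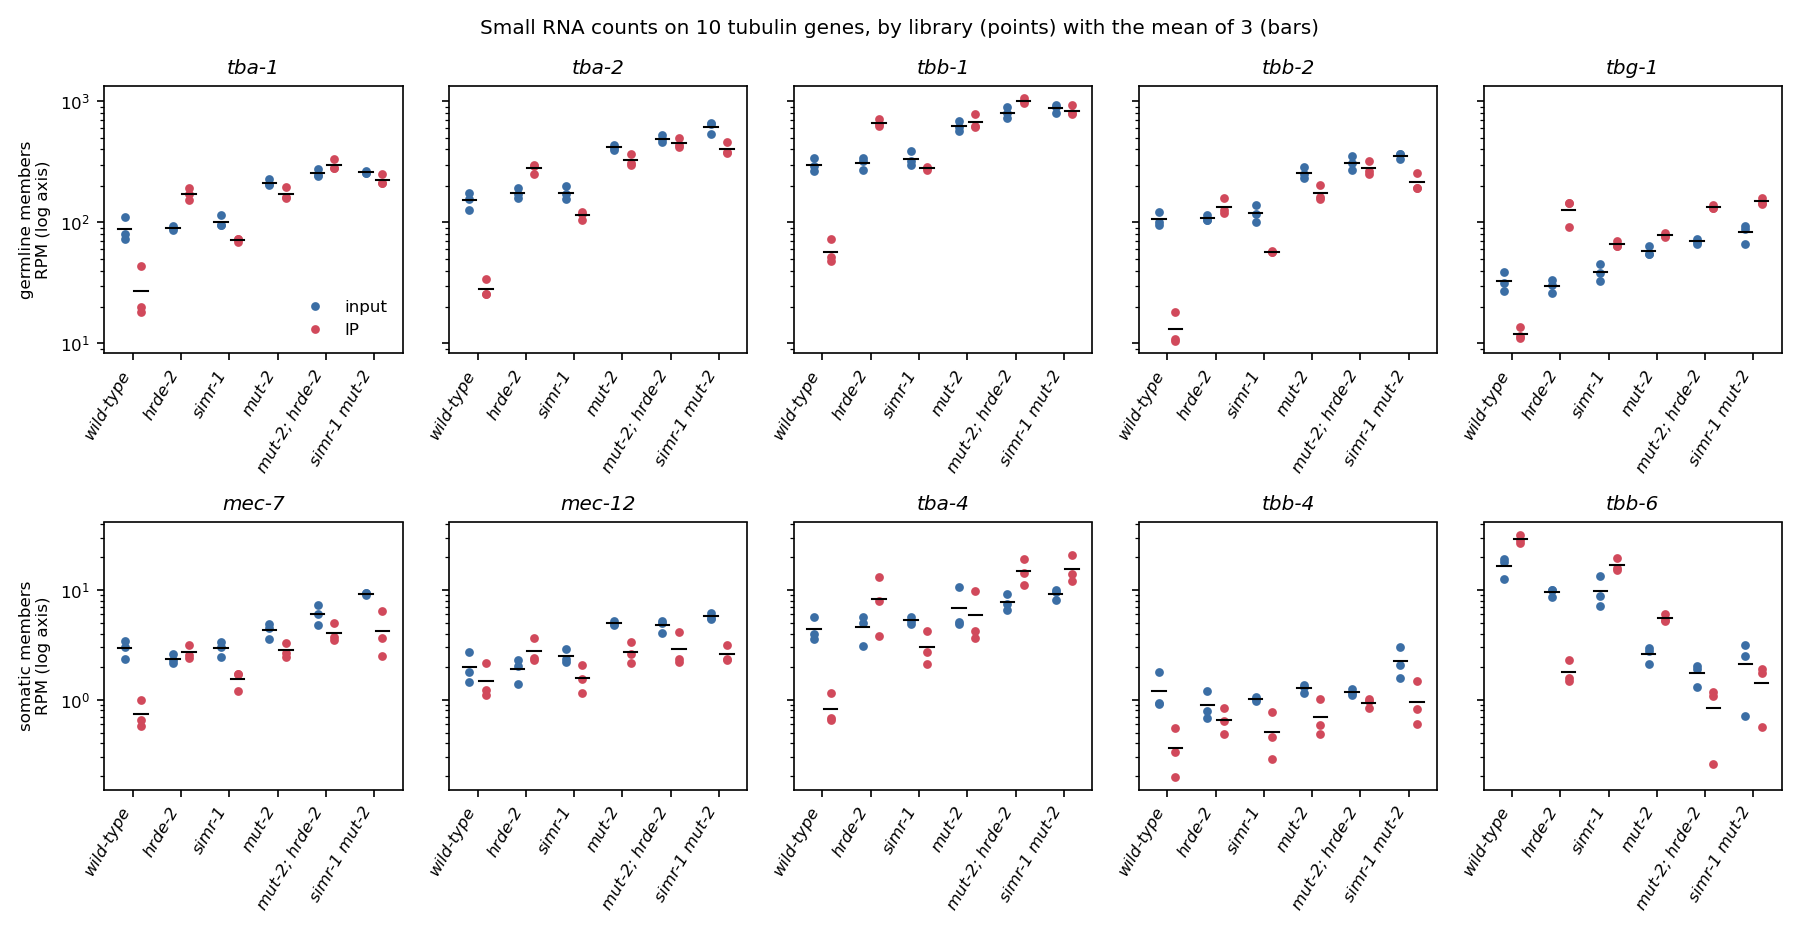
RPM (log axis) of the 10 tubulin genes in each of the 36 libraries, with germline genes in the upper row and somatic genes in the lower row; points are single libraries, blue for input and red for IP, and bars are means of 3. Wild-type IP lies below wild-type input for all 5 germline genes, as for *tbb-1* with means of 57.3 and 298 RPM, and *tbb-6* shows the opposite order with 29.4 and 16.6 RPM.

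To ask which tubulin small RNAs were bound by HRDE-1 when its pathway was intact, IP was compared with input in the wild-type strain. All 5 germline tubulins were depleted from the IP, and *tbb-6* was the one member that was enriched. A gene was called at a change of at least 2-fold with a Benjamini-Hochberg adjusted p no higher than 0.05 in edgeR's quasi-likelihood test, and 9 of the 10 members had enough counts to be tested. Of these, 7 were called lower in the IP, where 25.3% of all features tested were, and 1 was called higher, against 28.9% of all features. The median log2 change was -2.03 over the germline members and -0.86 over the 4 somatic members tested, with 0.15 over all features.

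The beta-tubulin *tbb-2* read 101, 121 and 95.3 RPM in the 3 inputs and 10.5, 18.3 and 10.9 RPM in the 3 IPs. Every IP library lay below every input library, and the fitted change was the largest fall among the members, a log2 change of -2.66 ± 0.25 (SE, edgeR adjusted p = 9.1e-05). Its sister *tbb-1* read 291, 337 and 265 RPM in the inputs and 47.7, 72.9 and 51.4 RPM in the IPs, a log2 change of -2.03 ± 0.21 (SE, edgeR adjusted p = 1.3e-04). The alpha-tubulin *tba-2* fell from 155, 175 and 127 RPM to 25.7, 33.9 and 25.6 RPM, a log2 change of -2.08 ± 0.18 (SE, edgeR adjusted p = 7.7e-05). Neither gene's input and IP libraries overlapped. For *tba-1* the inputs read 80.3, 110.3 and 72.6 RPM and the IPs 18.1, 43.3 and 19.9 RPM, a log2 change of -1.34 ± 0.34 (SE, edgeR adjusted p = 0.0074). Replicate 2 was the highest IP library for all 4 alpha- and beta-tubulins of the germline group. Without replicate 3 the *tba-1* call was lost, with a log2 change of -1.25 (adjusted p = 0.055). The gamma-tubulin *tbg-1* fell least among the germline members, from 31.8, 38.7 and 26.9 RPM to 13.6, 11.4 and 11.1 RPM, a log2 change of -1.09 ± 0.16 (SE, edgeR adjusted p = 5.6e-04). That value is near the 2-fold limit, and the gene missed it with no filter on low counts (-0.95, adjusted p = 6.7e-04) and with all 36 libraries in one fit (-0.90, adjusted p = 2.1e-05).

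The somatic members did not move as one group. The divergent beta-tubulin *tbb-6* read 19.2, 18.0 and 12.8 RPM in the inputs and 32.2, 28.9 and 27.2 RPM in the IPs. All 3 IP libraries were higher than all 3 inputs, and the log2 change was 1.17 ± 0.16 (SE, edgeR adjusted p = 4.2e-04). With scaling by library size alone it was 0.82 (adjusted p = 0.0053) and no longer reached 2-fold. That scaling also moved the split of all calls, of which 53.4% were higher in the IP in the main fit and 34.9% under library size scaling. The alpha-tubulin *tba-4* fell from 5.66, 3.95 and 3.61 RPM to 0.677, 1.15 and 0.648 RPM, a log2 change of -2.08 ± 0.36 (SE, edgeR adjusted p = 0.0013). The touch receptor beta-tubulin *mec-7* fell from 2.37, 3.05 and 3.46 RPM to 0.984, 0.577 and 0.648 RPM, a log2 change of -1.64 ± 0.36 (SE, edgeR adjusted p = 0.0038). Its call was lost without replicate 3, at -1.41 (adjusted p = 0.053). Its partner in touch neurons, the alpha-tubulin *mec-12*, showed no such gap: inputs read 1.44, 2.71 and 1.80 RPM, IPs read 1.11, 2.14 and 1.23 RPM, and the log2 change was -0.07 ± 0.40 (SE, edgeR adjusted p = 0.87). The ciliary *tbb-4*, with 0.927, 0.903 and 1.80 RPM in the inputs and 0.554, 0.330 and 0.195 RPM in the IPs, had too few counts to be tested in this genotype. *mec-7*, *mec-12*, *tba-4* and *tbb-4* stayed under 10 RPM in all wild-type libraries, so their values rest on few counts. Where a mean of at least 10 RPM in inputs or IPs was required, the calls of *tba-4* and *mec-7* were lost.

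In *hrde-2* mutants *tbg-1* was the only germline tubulin called higher in the IP in the main fit, and *tbb-6* was depleted from the IP. In RPM, before the scaling used in the fits, every IP library was above every input for all 5 germline tubulins. The share of all features with such a gap in RPM was not counted, so the gap is a description of these genes only. IP exceeded input by a fitted log2 change of 1.87 ± 0.23 (SE) for *tbg-1*, which was called higher (edgeR adjusted p = 8.3e-05), while 28.5% of all features were called higher. The only member called lower was *tbb-6*, where 41.9% of all features were. The median over the germline members was 0.68, against -0.34 over all features and 0.14 over the 4 somatic members tested. In 3 further germline members the adjusted p passed but the change stayed under 2-fold, with log2 values of 0.68 for *tba-1*, 0.46 for *tba-2* and 0.85 for *tbb-1*. With DESeq2, library size scaling, no filter or all 36 libraries, *tbb-1* was called as well, its highest value being 1.18 (adjusted p = 9.6e-10) with no filter, where *tba-1* was also called at 1.01 (adjusted p = 1.7e-08).

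The *tbb-1* libraries of *hrde-2* read 271, 323 and 338 RPM in the inputs, which overlapped with those of wild-type. The IPs read 709.7, 624 and 652 RPM, where the wild-type IPs lay between 47.7 and 72.9 RPM. The *tbg-1* libraries read 26.2, 33.2 and 30.4 RPM in the inputs and 91.7, 145 and 145 RPM in the IPs. No IP library of either gene overlapped with an input library. For *tbb-2* the inputs read 105, 105 and 115.8 RPM and the IPs 159, 119.2 and 126 RPM, a log2 change of 0.07 ± 0.10 (SE, edgeR adjusted p = 0.54) that was not past the threshold. The alpha-tubulins gave IPs of 191, 151 and 170.1 RPM for *tba-1*, and of 298, 252 and 294 RPM for *tba-2*. By contrast *tbb-6* read 9.97, 8.75 and 9.98 RPM in the inputs and 2.32, 1.48 and 1.58 RPM in the IPs, a log2 change of -2.64 ± 0.24 (SE, edgeR adjusted p = 1.1e-05). Its highest IP library was below its lowest input, but all 6 libraries were under 10 RPM, and the call was lost where a mean of at least 10 RPM in inputs or IPs was required. *mec-7*, *mec-12* and *tba-4* were not called, at log2 changes of -0.04, 0.32 and 0.62, and *tbb-4* was not tested.

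The change in IP over input between *hrde-2* and wild-type was tested as an interaction over the 12 libraries of both strains. It was called higher for 7 members, all 5 germline tubulins with *mec-7* and *tba-4*, and lower for *tbb-6*, where 33.7% of all features were called higher and 36.1% lower. The log2 differences were 3.30 ± 0.30 (SE, edgeR adjusted p = 1.9e-07) for *tbg-1*, 3.23 ± 0.24 for *tbb-1*, 3.08 ± 0.27 for *tbb-2*, 2.88 ± 0.21 for *tba-2* and 2.37 ± 0.37 for *tba-1*. In folds this is 5.18 to 9.87 times. The median was 3.08 over the germline and 1.05 over the somatic members, with -0.07 over all features. For *tbb-6* the difference was -3.47 ± 0.27 (SE, edgeR adjusted p = 4.0e-08). The somatic members that rose were *tba-4*, at 3.05 ± 0.63 (SE, edgeR adjusted p = 5.3e-04), and *mec-7*, at 1.94 ± 0.46 (SE, edgeR adjusted p = 0.0017). Without replicate 3 the *mec-7* call was lost (1.48, adjusted p = 0.085). *mec-12* gave 0.74 ± 0.53 and *tbb-4* 1.05 ± 0.69, with adjusted p-values of 0.23 and 0.18. Where a mean of 10 RPM was required, the calls of *mec-7* and *tba-4* were lost. All 8 calls were also made by DESeq2, with the library name suffix as a term, and without wild-type replicate 2.

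**Figure D2:**
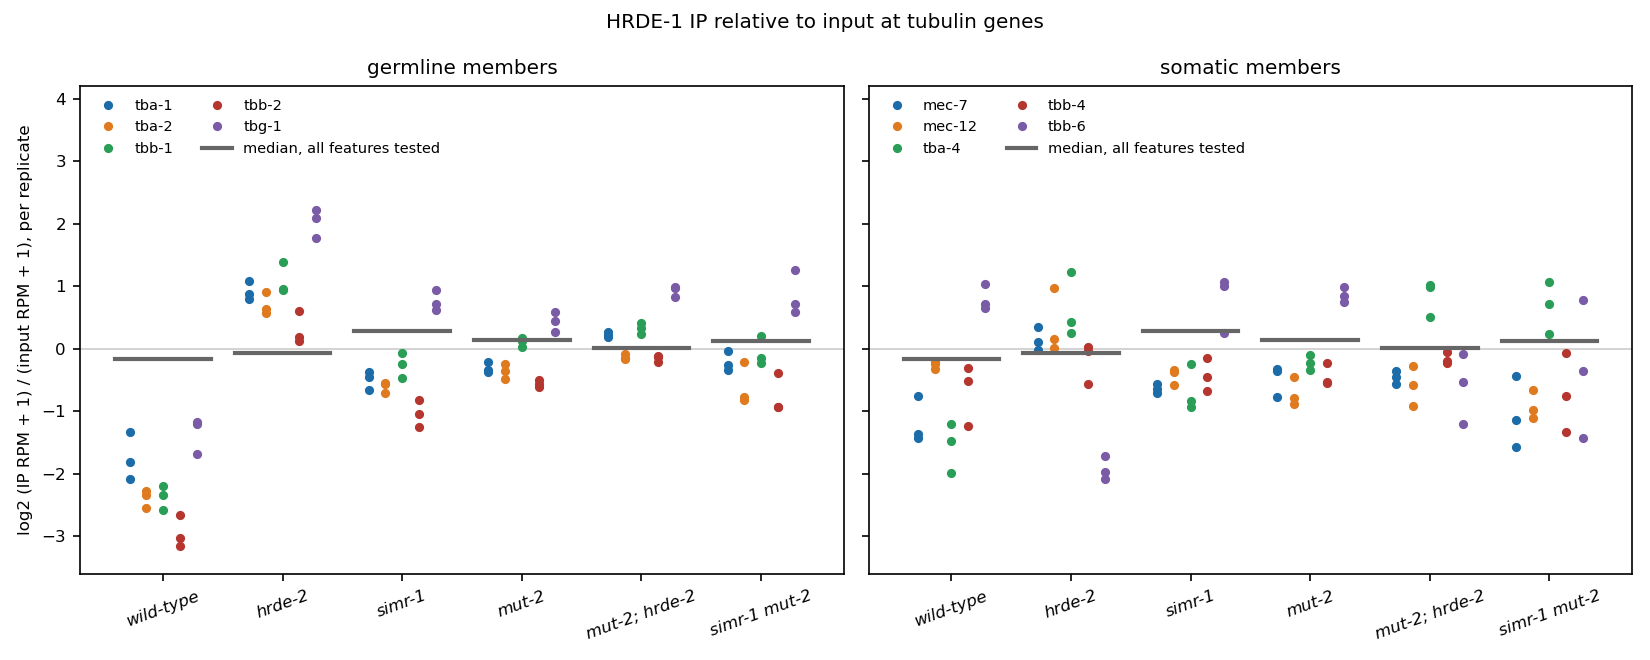
Log2 ratio of IP to input RPM, each with 1 RPM added, for the 5 germline (left) and the 5 somatic (right) tubulin genes in each genotype; each point is 1 replicate, and the grey line is the median over all features tested in that genotype, averaged over replicates. The germline genes lie between -3.16 and -1.17 in wild-type and between 0.13 and 2.22 in *hrde-2*, and *tbb-6* lies above 0 in wild-type and below -1 in *hrde-2*.

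In *simr-1* mutants the fitted change of each germline tubulin lay between its values in wild-type and *hrde-2*. IP stayed below input for *tbb-2*, with inputs of 139, 101 and 118 RPM and IPs of 58.2, 56.6 and 56.5 RPM, a log2 change of -1.41 ± 0.12 (SE, edgeR adjusted p = 9.5e-06). It was one of 4 members called lower, with *mec-7*, *tba-4* and *tbb-4*, where 21.6% of all features were called lower. No member was called higher, where 8.42% of features were. An edgeR adjusted p of at most 0.05 was found for 9 of 10 members, so most of those not called missed only the 2-fold limit. The alpha-tubulins missed the 2-fold limit, at log2 changes of -0.86 for *tba-1* and -0.96 for *tba-2*, as did *tbb-1* at -0.62. *tba-2* passed it without replicate 2 (-1.04, adjusted p = 2.0e-04) or replicate 3 (-1.01, adjusted p = 0.0062). In the gamma-tubulin *tbg-1* the sign differed: inputs read 45.6, 38.5 and 32.9 RPM, IPs read 70.6, 63.8 and 64.2 RPM, and the log2 change was 0.42 ± 0.11. *tbb-6* gave 0.45 ± 0.21 (SE, edgeR adjusted p = 0.09), with inputs of 7.18, 13.4 and 8.90 RPM and IPs of 15.4, 15.99 and 19.6 RPM, all above the inputs.

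The somatic genes called lower in *simr-1* were low in counts. The largest of these log2 changes was -1.35 ± 0.41 for *tbb-4*, whose inputs read 0.970, 1.06 and 1.00 RPM and IPs 0.777, 0.287 and 0.458 RPM. The adjusted p rose from 0.018 to 0.13 without replicate 3 and to 0.072 with DESeq2. For *mec-7* the log2 change was -1.31 ± 0.27, and for *tba-4* -1.16 ± 0.26. *mec-12* stood at -0.998 ± 0.30 (SE, edgeR adjusted p = 0.017), just inside the 2-fold limit, and with the replicate number as a block, which stands for the shared lysate, it was called at -1.01 (adjusted p = 0.0044), as it was without replicate 1 (-1.11, adjusted p = 0.041). With all 36 libraries in one fit none of the 4 calls remained, and where a mean of 10 RPM was required only that of *tbb-2* did. Scaling moved the split of all calls in this strain: 28.1% were higher in the IP in the main fit and 48.0% with library size scaling, where *mec-7* and *tba-4* missed the 2-fold limit.

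Against wild-type, IP over input in *simr-1* was higher for 3 germline tubulins, where 9.37% of all features were called higher and 21.9% lower. The log2 differences were 1.32 ± 0.19 (SE, edgeR adjusted p = 1.9e-04) for *tbg-1*, 1.23 ± 0.22 for *tbb-1* and 1.07 ± 0.27 for *tbb-2*. *tba-2* came close, at 0.93 ± 0.20 (SE, edgeR adjusted p = 0.0022), and was called with DESeq2 (1.27, adjusted p = 2.2e-06), with the library name suffix as a term (1.02, adjusted p = 8.4e-04) and without wild-type replicate 2 (1.00, adjusted p = 8.6e-04). *tba-1* stood at 0.31 ± 0.36 (SE, edgeR adjusted p = 0.49). No member was called lower, and the 5 somatic members ran from -1.10 for *mec-12* to 0.76 for *tba-4*. The median was 1.07 over the germline and -0.16 over the somatic members, where the median over all features was -0.63. Of all calls in this comparison, 29.9% were higher in the main fit, 61.0% with DESeq2, which changes scaling and test together, and 90.3% with library size scaling. Under library size scaling 6 members were called, where 4125 of 15524 features were called higher and 443 lower. The block on the lysate added *mec-12* at -1.13 (adjusted p = 0.02), and without replicate 3 the *tbb-2* call was lost at 1.01 (adjusted p = 0.1). *tbb-6* was called lower without replicate 1, at -1.11 (adjusted p = 0.014), where the fit with all replicates gave -0.90.

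In *mut-2* mutants IP and input of each germline tubulin differed by less than 2-fold. *tbb-1* read 568, 608 and 692 RPM in the inputs and 620.3, 616 and 782 RPM in the IPs, ranges that overlapped, with a log2 change of -0.05 ± 0.13 (SE, edgeR adjusted p = 0.75). *tbb-2* stayed lower in the IP, at -0.72 ± 0.13, with inputs of 249, 233 and 287 RPM and IPs of 162, 157 and 203 RPM. *tba-1* and *tba-2* gave -0.47 and -0.52, and *tbg-1* 0.29. None of the 5 was called, although 4 had an edgeR adjusted p of at most 0.05 and missed only the 2-fold limit. The 1 member called was *mec-12*, lower in the IP, at -1.06 ± 0.22 (SE, edgeR adjusted p = 0.0017), where 22.3% of all features were called lower. Its inputs read 5.25, 4.92 and 4.79 RPM and its IPs 2.61, 3.34 and 2.15 RPM. Its call was lost under 5 alternatives: without replicate 3 (-0.93, adjusted p = 0.014), with library size scaling (-0.90, adjusted p = 0.0055), with no filter (-0.94, adjusted p = 8.3e-04), with all 36 libraries (-0.84, adjusted p = 0.018) and where a mean of 10 RPM was required. No member was called higher, where 13.4% of all features were, and *tbb-6* came nearest at 0.91 ± 0.22 (SE, edgeR adjusted p = 0.0036). It passed the limit with library size scaling (1.07, adjusted p = 0.0012).

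Compared with wild-type, IP over input in *mut-2* was higher for 7 members, the 5 germline tubulins, *mec-7* and *tba-4*, where 28.4% of all features were called higher. None was lower, where 9.64% were. The largest differences among the members were those of *tbb-1*, at 2.43 ± 0.27 (SE, edgeR adjusted p = 8.0e-06), and *tbb-2*, at 2.39 ± 0.30. The other germline values were 2.01 ± 0.23 for *tba-2*, 1.82 ± 0.18 for *tbg-1* and 1.33 ± 0.38 for *tba-1*. The somatic *tba-4* stood at 2.14 ± 0.67 (SE, edgeR adjusted p = 0.017) and *mec-7* at 1.29 ± 0.44 (SE, edgeR adjusted p = 0.029). Neither of these was called where a mean of 10 RPM was required. The germline median of 2.01 and the somatic median of 0.79 stood beside 0.44 over all features. For *tbb-6* the difference was not past the threshold, at 0.19 ± 0.26 (SE, edgeR adjusted p = 0.59). Its inputs read 2.13, 2.79 and 2.95 RPM and its IPs 5.22, 5.38 and 6.06 RPM, in both fractions below every wild-type library of that fraction.

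Some of these calls depended on the test, the model or the replicates used. Leaving out a replicate number removed its input and IP libraries from both strains. With DESeq2, *tba-1* (0.94, adjusted p = 0.057) and *mec-7* (0.90, adjusted p = 0.15) were not called. Without replicate 1, *tba-1* (1.10, adjusted p = 0.078) and *tba-4* (1.72, adjusted p = 0.14) were lost, and without replicate 3, *tba-1* (1.10, adjusted p = 0.15) and *mec-7* (0.88, adjusted p = 0.29). *mec-7* was also lost without replicate 2 (1.00, adjusted p = 0.16) and without wild-type replicate 2 alone (1.08, adjusted p = 0.087). With the library name suffix as a term, only the other 4 germline tubulins were called, and *tba-1* stood at 0.92 (adjusted p = 0.015). Of all calls, 74.7% were higher in the main fit, 53.7% with DESeq2, which changes the scaling and the test together, and 76.6% with library size scaling. The *mut-2* comparison shares its wild-type libraries with those of *hrde-2* and *simr-1*.

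In the main fits of the double mutants no germline tubulin was called between IP and input. In the *hrde-2* double mutant no member of either group was called higher, where 2.96% of all features were, and 1 was called lower, where 28.9% were. *tbb-1* read 792, 904 and 720.0 RPM in the inputs and 997, 1060.2 and 959.8 RPM in the IPs, a log2 change of 0.26 ± 0.10 (SE, edgeR adjusted p = 0.032). *tbg-1* read 66.7, 73.4 and 69.1 RPM and 131, 131 and 139 RPM, at 0.88 ± 0.07 (SE, edgeR adjusted p = 5.5e-08), so its IPs were all above its inputs but under the 2-fold limit. It passed the limit with no filter (1.04, adjusted p = 9.3e-28) and with all 36 libraries (1.01, adjusted p = 2.7e-06). In both of these fits *tba-4* was also called higher, at 1.03 and 1.00, and *tbb-6* missed the limit, at -0.94 and -0.97. The 1 call in the main fit was *tbb-6*, lower at -1.09 ± 0.44 (SE, edgeR adjusted p = 0.039), from inputs of 1.30, 1.89 and 2.01 RPM and IPs of 1.16, 0.258 and 1.08 RPM. Replicate 2 had the lowest IP value, and without replicate 2 the call was lost (-0.65, adjusted p = 0.18), as it was where a mean of 10 RPM was required and with DESeq2 (-1.06, adjusted p = 0.11). *mec-12* missed the limit at -0.78 and passed it without replicate 1 (-1.09, adjusted p = 0.0076).

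Against *mut-2*, IP over input in the *hrde-2* double mutant was lower for *tbb-6*, at -1.99 ± 0.51 (SE, edgeR adjusted p = 0.0052), where 21.4% of all features were called lower. That call too was lost where a mean of 10 RPM was required. No member was called higher, where 1.74% were. The germline members all had positive differences, from 0.33 for *tbb-1* to 0.65 for *tba-1*. Of the 5, 4 had an unadjusted p under 0.05 and 3 an edgeR adjusted p of at most 0.05. *tba-4* stood at 1.29 ± 0.53 (SE, edgeR adjusted p = 0.057). With the block on the lysate it was called, at 1.27 (adjusted p = 8.7e-04), so that the paired fit called 2 members where the unpaired fit called 1, and it was also called without replicate 3 (1.27, adjusted p = 0.04). Its IPs read 11.1, 19.3 and 14.4 RPM, above all 3 inputs of 7.53, 9.30 and 6.59 RPM. The germline median was 0.52 and the somatic median 0.29, with -0.05 over all features.

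In the *simr-1* double mutant the 3 members called were somatic and lower in the IP, where 22.5% of all features were called lower and 3.75% higher. *mec-12* gave -1.27 ± 0.26 (SE, edgeR adjusted p = 0.0042), *mec-7* -1.24 ± 0.39 and *tbb-4* -1.30 ± 0.45. Inputs read 5.50, 6.18 and 5.61 RPM and IPs 2.30, 2.33 and 3.17 RPM for *mec-12*, without overlap. All 3 calls were lost where a mean of 10 RPM was required and without replicate 2, with adjusted p-values of 0.092, 0.17 and 0.18, and *mec-7* and *tbb-4* also without replicate 3, with 0.11 and 0.22. The germline members ran from -0.84 for *tbb-2* to 0.75 for *tbg-1*, and *tbb-2* was called without replicate 1 (-1.03, adjusted p = 6.3e-06). Against *mut-2* no member was called, where 0.114% of all features were higher and 10.7% lower. At an unadjusted p under 0.05 there were 2 members, and DESeq2 called 1 of the 10, *tbb-6*, at -1.79 (adjusted p = 0.049), where edgeR gave -1.88 ± 0.65 (SE, edgeR adjusted p = 0.073). Its inputs in the *simr-1* double mutant read 3.18, 2.52 and 0.702 RPM and its IPs 0.558, 1.75 and 1.91 RPM, and these overlapped. The median difference was -0.28 over the germline and -0.45 over the somatic members, with -0.14 over all features.

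**Figure D3:**
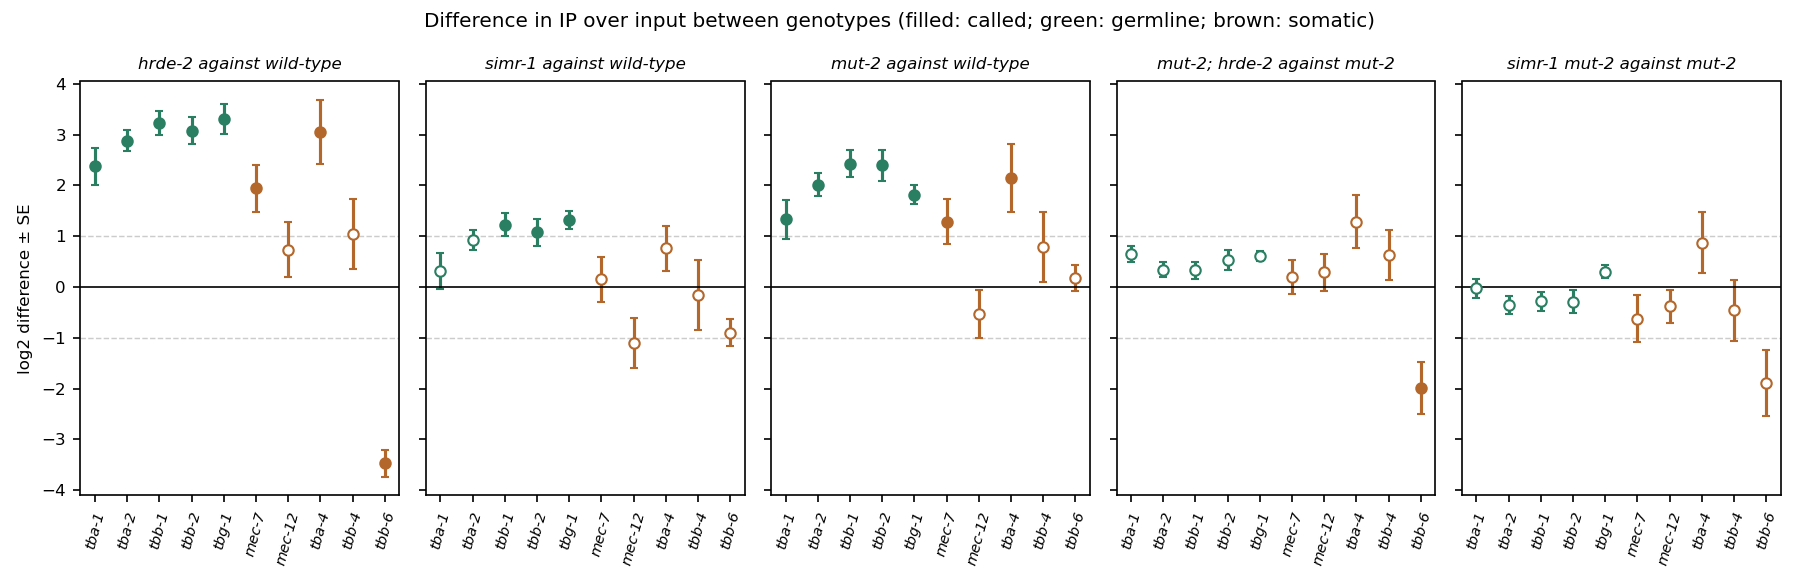
Log2 difference in IP over input between genotypes (edgeR interaction, ± SE) for each tubulin gene, germline in green and somatic in brown; filled symbols were called and dashed lines mark 2-fold. Against wild-type, the germline genes sit between 2.37 and 3.30 in *hrde-2*, between 0.31 and 1.32 in *simr-1*, and between 1.33 and 2.43 in *mut-2*, and *tbb-6* is at -3.47 in *hrde-2*.

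Total small RNA levels were compared between the inputs of each mutant and wild-type. In *hrde-2* and in *simr-1* no tubulin gene was called. Of all features, 14.1% and 14.4% were called in *hrde-2* and *simr-1*, and 2 members in each had an unadjusted p under 0.05. DESeq2 also called 0 in both. In *hrde-2* the germline members ran from 0.04 for *tbg-1* to 0.34 for *tba-2*, and their libraries overlapped with wild-type. *tbb-6* was lower without reaching 2-fold in *hrde-2*, at -0.64 ± 0.18 (SE, edgeR adjusted p = 0.043), with inputs of 9.97, 8.75 and 9.98 RPM against 19.2, 18.0 and 12.8 RPM in wild-type. In *simr-1* it stood at -0.69 ± 0.25 (SE, edgeR adjusted p = 0.1), from inputs of 7.18, 13.4 and 8.90 RPM, and it was called at -1.03 (adjusted p = 0.025) without replicate 2.

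In the 3 *mut-2* strains *tbb-6* fell, and the germline tubulins were higher, mostly by less than 2-fold. *tbb-6* gave -2.98 ± 0.26 (SE, edgeR adjusted p = 5.5e-06) in *mut-2*. It gave -3.96 ± 0.27 (SE, edgeR adjusted p = 1.9e-06) in the *hrde-2* double mutant, with inputs of 1.30, 1.89 and 2.01 RPM. In the *simr-1* double mutant the value was -3.58 ± 0.46 (SE, edgeR adjusted p = 1.3e-04). These are falls of 7.87, 15.6 and 11.9 times, and no mutant input overlapped with a wild-type input. It was the 1 member called lower in each strain, where 33.1% of all features were called lower in *mut-2*, 36.9% in the *hrde-2* double mutant and 35.3% in the *simr-1* double mutant. It was also called in each strain when only libraries with the same suffix in their name were compared, which left 1 wild-type library, assumed to vary like the mutant libraries.

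Of the germline tubulins, *tba-2* was called higher in *mut-2*, at 1.11 ± 0.18 (SE, edgeR adjusted p = 4.8e-04), with inputs of 395, 414 and 436 RPM against 155, 175 and 127 RPM in wild-type. It was called in the *simr-1* double mutant too, at 1.29 ± 0.17 (SE, edgeR adjusted p = 1.4e-04), with inputs of 531, 653 and 664 RPM. *tbb-2* was called in the *simr-1* double mutant, at 1.03 ± 0.16 (SE, edgeR adjusted p = 3.8e-04), with inputs of 336, 366 and 366 RPM against 101, 121 and 95.3 RPM. Features called higher made up 11.1% of those tested in *mut-2*, 11.8% in the *simr-1* double mutant and 10.8% in the *hrde-2* double mutant, where no member was called higher. The remaining germline values in the 3 strains lay between 0.40 and 0.98, all with adjusted p-values under 0.05. For each of the 5 genes every input of these strains was above every wild-type input in RPM, and the share of all features with such a gap was not counted. RPM rose widely: with library size scaling the median log2 change over all features was 0.32 in *mut-2*. It was 0.49 in the *hrde-2* double mutant and 0.58 in the *simr-1* double mutant. The median over the germline members was 0.94, 0.83 and 0.85 in *mut-2*, the *hrde-2* double mutant and the *simr-1* double mutant, against -0.01, -0.22 and -0.13 over all features. The somatic medians were 0.29, 0.22 and 0.36.

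These rises depended on the scaling and on which replicates were used. Under library size scaling 6, 8 and 9 members were called in *mut-2*, the *hrde-2* double mutant and the *simr-1* double mutant. Most features were called as well: 3338 of 13558, 4972 of 13527 and 5369 of 13560 higher, and 4093, 4209 and 4088 lower. The share of all calls that were higher went from 25.1% to 44.9%, from 22.6% to 54.2% and from 24.98% to 56.8%. *tba-2* in *mut-2* missed 2-fold without replicate 1 (0.88, adjusted p = 0.021), without replicate 3 (0.68, adjusted p = 0.019) and without wild-type replicate 2 alone (0.96, adjusted p = 3.6e-04). In the *simr-1* double mutant it missed 2-fold without replicate 3 (0.96, adjusted p = 0.027). *tbb-2* there missed 2-fold without each of the 3 numbers in turn, with values from 0.66 to 0.85, and at 0.83 (adjusted p = 0.0012) without wild-type replicate 2. With libraries of the same suffix only, neither gene was called in any of the 3 strains, at 0.68 (adjusted p = 0.016) for *tba-2* in *mut-2*. *mec-12* stood at 0.99 ± 0.32 (SE, edgeR adjusted p = 0.022) in *mut-2*, just inside the limit, and was called without wild-type replicate 2 (1.04, adjusted p = 0.017) and without replicate 2 (1.09, adjusted p = 0.029).

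Adding a second mutation to *mut-2* changed no tubulin input by the call rule. Features called in either direction were 6.55% in the *hrde-2* double mutant and 10.5% in the *simr-1* double mutant. Unadjusted p-values under 0.05 were found for 1 and 2 members, and DESeq2 called 0. *mec-7* came nearest, at 0.79 ± 0.23 (SE, edgeR adjusted p = 0.052) in the *simr-1* double mutant, with inputs of 9.11, 9.38 and 9.36 RPM against 4.92, 3.61 and 4.55 RPM, and was called with library size scaling at 1.08 (adjusted p = 0.012). That scaling moved the share of all calls that were higher from 5.23% to 29.6% for the *hrde-2* double mutant and from 33.8% to 62.3% for the *simr-1* double mutant.

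**Figure D4:**
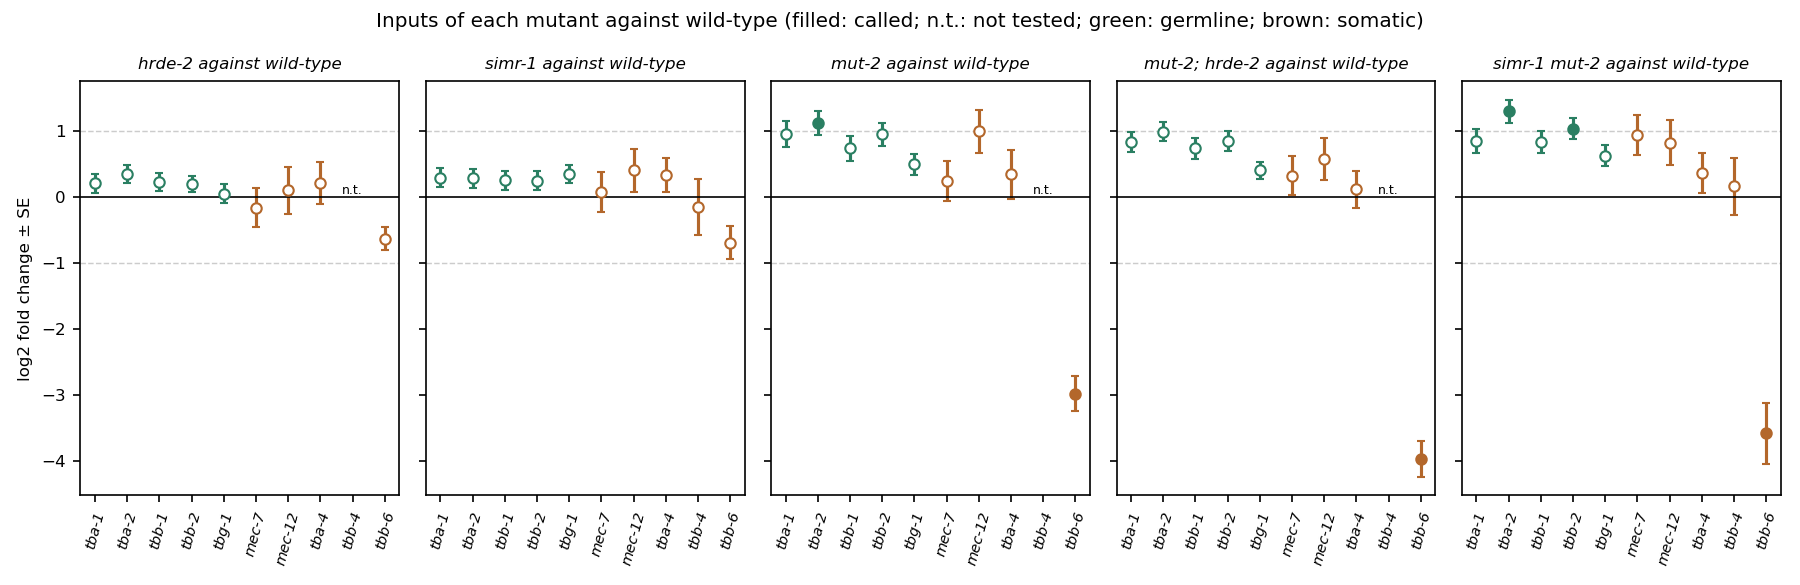
Log2 fold change of the inputs of each mutant against wild-type (edgeR, ± SE) for each tubulin gene, germline in green and somatic in brown; filled symbols were called, n.t. marks a gene not tested, and dashed lines mark 2-fold. *tbb-6* lies at -2.98, -3.96 and -3.58 in the 3 *mut-2* strains, while the 5 germline genes lie between 0.40 and 1.29.

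Over the germline genes, the log2 of IP RPM divided by input RPM, with 1 RPM added to both, had a median of -2.54, -2.19 and -2.27 in the 3 wild-type replicates and 1.07, 0.79 and 0.87 in *hrde-2*. The somatic median was -0.31, -0.52 and -1.23 in wild-type and 0.10, -0.03 and 0.01 in *hrde-2*. All features tested averaged -0.17 ± 0.05 and -0.08 ± 0.04 (SD, n = 3). The germline values were therefore under the median of all features in wild-type and above it in *hrde-2*, with no overlap between the strains. In *simr-1* and *mut-2* the group medians differed by less than the SD of either group: -0.50 ± 0.15 and -0.46 ± 0.16 in *simr-1*, and -0.31 ± 0.08 and -0.37 ± 0.16 in *mut-2*, for germline and somatic genes. In the *hrde-2* double mutant they stood at 0.21 ± 0.02 and -0.41 ± 0.16, and in the *simr-1* double mutant at -0.22 ± 0.15 and -0.62 ± 0.16. Several somatic genes stood near 1 RPM, where adding 1 RPM brings such ratios closer to 0.

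The 5 germline genes together took 0.0677% ± 0.0099 of all counts in the wild-type inputs and 0.0138% ± 0.0036 in the wild-type IPs (SD, n = 3). In *hrde-2* the shares were 0.0712% ± 0.0058 and 0.138% ± 0.0080, so the IP share was above the input share in the mutant and below it in wild-type. In *mut-2* they were 0.156% ± 0.0118 and 0.142% ± 0.0183, and in the *simr-1* double mutant the input share reached 0.219% ± 0.0170. The somatic genes never passed 0.00355% in any library, and *tbb-6* made up most of their wild-type IP total of 32.8 RPM. Across the 12 conditions, log2 mean levels of *tba-1* and *tba-2* had a Pearson correlation of 0.99, those of *tba-2* and *tbb-2* of 0.99, and those of *tba-1* and *tbg-1* of 0.85. *tba-4* went with the germline genes, at 0.94 with *tbb-1* and 0.89 with *tbg-1*. *mec-7*, *mec-12* and *tbb-4* did so less evenly, at 0.92, 0.80 and 0.75 with *tbb-2* and 0.59, 0.45 and 0.27 with *tbg-1*. Only *tbb-6* ran against the germline genes, at -0.94 with *tba-1*. The conditions share strains and lysates, so these values are descriptions.

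Among 10049 genes with at least 10 RPM in some condition, the 3 whose log2 mean levels over the 12 conditions were most like those of *tbb-2* were *smo-1* (Pearson r = 0.995), *snu-13* (0.993) and *clec-87* (0.993). For *tba-4* they were *nduf-11* (0.971), *F58A4.2* (0.970) and *pas-1* (0.967). For *tbb-6*, added after its values were seen, they were *acox-1.6* (0.993), *pap-3* (0.991) and *drl-1* (0.989).

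Other genes of the microtubule system were counted from lists given by name. Of 6 further tubulins only the beta-tubulin *ben-1*, the target of benzimidazole drugs, carried an appreciable level, at 18.7 RPM in wild-type inputs and 13.9 RPM in wild-type IPs, and it was called in no comparison. *tba-5*, *tba-6*, *tba-7*, *tba-8* and *tba-9* averaged at most 1.85 RPM in any condition. Among them *tba-6*, whose exons overlap those of *F32H2.6*, was tested in *hrde-2*, where it passed the filter through its inputs alone, with mean levels of 1.85 RPM there and 0.0918 RPM in the IPs.

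Genes of the gamma-tubulin complex and the centrosome moved in the direction of *tbg-1*. All 8 were tested, and IP over input was called higher in *hrde-2* than in wild-type for all 8, where 33.7% of all features were, with a list median of 3.24 against -0.07 over all features. In the wild-type IP 5 of the 8 were called lower, where 25.3% of all features were, and none higher, with a median of -1.10. In the *hrde-2* IP 8 were called higher, where 28.5% were. The complex partner *gip-1* averaged 71.1 RPM in wild-type inputs, 30.95 RPM in wild-type IPs and 366 RPM in the *hrde-2* IPs, a difference of 3.23 ± 0.25 on the log2 scale (edgeR adjusted p = 4.3e-08). The centrosome scaffold *spd-5* gave 2.92 ± 0.23. In *mut-2* against wild-type 8 of 8 were called higher, and in *simr-1* 6 of 8, with medians of 1.67 and 1.15, where 28.4% and 9.37% of all features were higher.

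Of 18 tubulin folding genes, chaperonin and prefoldin subunits and tubulin cofactors, 15 were called higher in *hrde-2* against wild-type and none lower, with a median of 2.42, where 33.7% of all features were higher. In the wild-type IP 8 of the 18 were called lower, where 25.3% of all features were, and 1 higher, the prefoldin subunit *pfd-5*, at 1.09 ± 0.34 on the log2 scale. The chaperonin subunit *cct-5* averaged 31.99 RPM in wild-type inputs, 7.59 RPM in wild-type IPs and 40.7 RPM in the *hrde-2* IPs. Against wild-type, 11 of the 18 were higher in *mut-2*, where 28.4% of all features were. In *simr-1* 5 were higher and 1 lower, where 9.37% and 21.9% were. Against the same shares, spindle microtubule regulators gave 11 of 11 higher in *hrde-2*, with a median of 3.18, 8 of 11 in *mut-2* and 7 of 11 in *simr-1*. In the wild-type IP 4 of these 11 were lower, near the 25.3% over all features. The kinesin *klp-18*, which acts on meiotic spindles, averaged 553 RPM in wild-type inputs, 173 RPM in wild-type IPs and 2069 RPM in *hrde-2* IPs.

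Of 10 genes of tubulin-modifying enzymes, 7 were tested in *hrde-2* against wild-type, 4 were called higher and 1 lower, where 33.7% and 36.1% of all features were. The tubulin ligase genes *ttll-4* and *ttll-12* rose by 3.33 ± 0.26 and 3.52 ± 0.26 on the log2 scale. The acetyltransferase gene *atat-2* fell, from mean levels of 1.64 RPM in inputs and 4.82 RPM in IPs of wild-type to 0.935 and 0.288 RPM in *hrde-2*. Neuronal microtubule and touch receptor genes had 6 of 11 members tested, of which 1 was higher and 2 were lower, no more than the 33.7% and 36.1% over all features, with a median of -0.20 against -0.07. The one that was higher was *unc-116*, the kinesin-1 heavy chain, which is also used outside neurons, at 2.78 ± 0.30. The tau-like *ptl-1* was lower, with mean levels of 9.47 RPM in wild-type IPs and 0.421 RPM in *hrde-2* IPs. Like *atat-2*, it was highest in the wild-type IPs and low in *hrde-2*. Each of these genes could pass the filter on counts through wild-type libraries alone, which favours a fall. The touch channel and regulator genes *mec-2*, *mec-3*, *mec-10* and *mec-18* averaged at most 0.451 RPM in any condition. The IP over input of the double mutants against *mut-2* gave no call in the centrosome, folding and spindle lists.

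Markers of cell types were summed beside these results. The 8 germline markers summed to 882 to 1137 RPM over the inputs of wild-type and 577 to 678 RPM over its IPs, against 2709 to 2811 RPM in the *hrde-2* IPs. In the inputs of *mut-2*, the *hrde-2* double mutant and the *simr-1* double mutant they summed to 1557 to 1916 RPM, 2105 to 2634 RPM and 2199 to 2786 RPM. Their sums were thus higher where the germline tubulins were higher. By the call rule only 1, 2 and 3 of the 8 inputs were higher than wild-type in these strains, where 11.1%, 10.8% and 11.8% of all features were. In IP over input all 8 were called higher in *hrde-2* against wild-type, where 33.7% of all features were higher and 36.1% lower. The 8 neuronal markers summed to 84.6 to 102 RPM in the wild-type inputs, 144 to 154 RPM in the wild-type IPs and 57.5 to 64.1 RPM in the *hrde-2* IPs, and in *hrde-2* against wild-type 5 were lower and 1 higher. The lower genes include *sng-1*, which could pass the filter on counts through the wild-type IPs alone. The 5 sperm markers summed to 4.58 to 13.1 RPM in wild-type inputs and 11.3 to 19.1 RPM, 21.5 to 29.3 RPM and 33.1 to 46.1 RPM in the inputs of the 3 *mut-2* strains. They did not all rise: by the call rule 3, 3 and 4 inputs were higher than wild-type and 1, 1 and 0 lower. Among all features 11.1%, 10.8% and 11.8% were higher and 33.1%, 36.9% and 35.3% lower. The 5 muscle markers summed to 82.5 to 193 RPM over the inputs of wild-type, 28.9 to 58.0 RPM over its IPs and 24.7 to 155 RPM over the *hrde-2* IPs. All 5 were lower in the wild-type IP (median -3.08), where 25.3% of all features were, and in *hrde-2* against wild-type 3 were higher and none lower (median 2.74). The 5 intestine markers summed to 18.5 to 24.9 RPM over the inputs of wild-type and 3.05 to 4.12 RPM over its IPs, and in *hrde-2* against wild-type 1 was higher and none lower. No germline marker averaged under 1 RPM in the wild-type inputs, and 1 neuronal marker did. The part of these shifts in the tubulin results was not tested.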

How the data were processed

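Small RNA was measured in input and HRDE-1 IP libraries of 6 genotypes, 3 replicates each, grouped by the sample labels. The authors filtered reads with FASTX-Toolkit, which also took off adapters, removed reads of the size standards (cutadapt 3.4), aligned to the WS258 genome with Bowtie2 2.5.0 and counted reads over exons with featureCounts (Subread 2.0.1) without regard to strand. The deposited values are expected counts, since a read overlapping several features was divided, and 10.4% of non-zero values were fractions. They were rounded to whole numbers for testing. Gene symbols were matched by WBGene identifier to Ensembl 115, which lists 30911 of the 31106 features.

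RPM used the sum of counts on genes, and 1 RPM was added before logarithms. Tests used R 4.3.3 and edgeR 4.0.16 (TMM, a minimum of 10 counts in 3 or more libraries, quasi-likelihood F test, Benjamini-Hochberg over all features), with 6 libraries per fit and 12 for interactions. A call needed a change of 2-fold or more and an adjusted p no higher than 0.05. SE is the log2 change divided by the square root of F. The code was tested on simulated data. Summaries used Python 3.11.15 with pandas 2.3.3, and plots matplotlib 3.10.9. Alternatives were DESeq2 1.42.0, library size scaling, no filter, a 10 RPM minimum, no structural RNA features, leaving out replicates, a replicate block, all 36 libraries together, a library name suffix term, only libraries of one suffix, and, added after seeing the data, leaving out wild-type replicate 2. Class medians were also computed with pseudocounts of 0.5 and 5 RPM.

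Input and IP of one number come from one lysate, and their deviations from the condition means correlated above 0.1 in 16 of 18 pairs (0.02 to 0.53). Between inputs of different genotypes this held for 4 of 21 (-0.33 to 0.29), and these were not taken as paired. Replicates were grown, immunoprecipitated and made into libraries separately, according to the study's methods. The members and gene lists were chosen with earlier results of these data known. The text names all 10 members, the other tubulins and some genes of the lists as examples, so not every called list gene is named. For likeness the genes planned were *tbb-2* and *tba-4*.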

Additional observations from a re-analysis of the deposited data

Results flagged for a closer look

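The ratio of IP to input differed between genotypes, by the interaction test in edgeR, for 19 pairs of a tubulin gene and a comparison. Calls were also common among all features, so this count alone does not set tubulin genes apart. Set against wild-type, 33.7% of all features rose and 36.1% fell for *hrde-2*. The shares were 9.37% and 21.9% for *simr-1*, with 28.4% and 9.64% for *mut-2*. Set against *mut-2*, 1.74% rose and 21.4% fell for the *hrde-2* double mutant. For the *simr-1* double mutant 0.114% rose and 10.7% fell. In *hrde-2* against wild-type the log2 differences were 2.37 for *tba-1*, 2.88 for *tba-2*, 3.23 for *tbb-1*, 3.08 for *tbb-2*, 3.30 for *tbg-1*, 1.94 for *mec-7*, 3.05 for *tba-4* and -3.47 for *tbb-6*. In *simr-1* against wild-type they were 1.23 for *tbb-1*, 1.07 for *tbb-2* and 1.32 for *tbg-1*. In *mut-2* against wild-type they were 1.33 for *tba-1*, 2.01 for *tba-2*, 2.43 for *tbb-1*, 2.39 for *tbb-2*, 1.82 for *tbg-1*, 1.29 for *mec-7* and 2.14 for *tba-4*. In *mut-2; hrde-2* against *mut-2* the value was -1.99 for *tbb-6*. The comparisons with wild-type share its 6 libraries and are not independent of each other.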

How the results depend on the processing

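Counts of tubulin genes called moved by more than 1.5 times in 41 alternatives and not in 143, and no called gene changed sign in any alternative run. For single genes, 1609 alternatives kept the call or its absence, 69 lost a call and 70 gained one. With no filter on low counts the number called became 4 (from 2) for IP over input in *hrde-2*, 2 (from 1) in the *hrde-2* double, 2 (from 1) for the *hrde-2* double against *mut-2*, 2 (from 0) for the *simr-1* double against *mut-2*, and 5 (from 2) and 5 (from 1) for inputs of *mut-2* and the *hrde-2* double. With a minimum of 10 RPM it became 1 in *hrde-2*, 1 (from 4) in *simr-1*, and 0 in *mut-2*, in the *hrde-2* double, in the *simr-1* double (from 3) and for the *hrde-2* double against *mut-2*. With scaling by library size, which moved the median of all features by -0.35 to 0.86 on the log2 scale, it became 2 in *simr-1*, 0 in the *hrde-2* double, 6 (from 3) for *simr-1* against wild-type, 6, 8 and 9 for the inputs of the *mut-2* strains, and 1 (from 0) for the *simr-1* double inputs against *mut-2*. DESeq2 gave 0 in the *hrde-2* double, 1 for the *simr-1* double against *mut-2*, and 2 for inputs of the *hrde-2* double. All 36 libraries in one fit gave 0 in *simr-1* and 2 in the *hrde-2* double. In the *hrde-2* double these 2 calls, like the 2 with no filter, were *tbg-1* and *tba-4*, higher, in place of *tbb-6*, lower. Leaving out structural RNA features gave 2 for the *hrde-2* double against *mut-2* and 2 for its inputs against wild-type. A term for the library name suffix gave 4 (from 7) for *mut-2* against wild-type, and libraries of the same suffix gave 1 (from 2) and 1 (from 3) for inputs of *mut-2* and the *simr-1* double. Of the group medians of log2 IP over input, 17 alternatives moved the value by more than its SD and 65 did not. A pseudocount of 5 RPM brought the somatic median to -0.18 in *simr-1*, -0.14 in *mut-2*, -0.19 in the *hrde-2* double and -0.32 in the *simr-1* double, and in wild-type it read -0.98 with 0.5 RPM and -0.21 with 5 RPM. The germline medians stayed within their SD under both pseudocounts. Of the tubulin shares of counts, 7 moved and 5 did not, all 7 by leaving structural RNA features out. The cause of these shifts was not tested.

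The replicate block, which pairs input and IP of a lysate, gave 2 (from 1) for the *hrde-2* double against *mut-2*, 5 (from 4) in *simr-1* and 4 (from 3) for *simr-1* against wild-type, and changed no other call on IP over input. Between inputs of different genotypes, where numbers pair nothing, it gave 3 (from 2) in *mut-2*. Leaving out each replicate number in turn gave 6 to 8 calls in wild-type, 2 to 2 in *hrde-2*, 4 to 4 in *simr-1*, 0 to 1 in *mut-2*, 0 to 2 in the *hrde-2* double and 0 to 4 in the *simr-1* double for IP over input. Between genotypes it gave 7 to 8, 2 to 4 and 5 to 6 against wild-type for *hrde-2*, for *simr-1* and for *mut-2*, and 1 to 2 and 0 to 0 for the double mutants against *mut-2*. For inputs it gave 0 to 0, 0 to 1, 1 to 3, 1 to 1 and 1 to 2 for *hrde-2*, *simr-1*, *mut-2*, the *hrde-2* double mutant and the *simr-1* double mutant. Depth limits *mec-7*, *mec-12*, *tba-4* and *tbb-4*, most of which stayed under 10 RPM, so a missed call there does not show that nothing changed.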

Other observations

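Of the 8 neuronal markers, 5 were lower and 1 was higher in IP over input in *hrde-2* against wild-type, where 36.1% and 33.7% of all features were. Those that were lower were *rab-3*, *ric-4*, *sng-1*, *egl-21* and *unc-119*, the one that was higher was *snb-1*, and *unc-64*, at -1.02 ± 0.53 (edgeR adjusted p = 0.096), and *egl-3*, at -0.57 ± 0.69 (edgeR adjusted p = 0.47), were not called. *rab-3*, which encodes a synaptic vesicle GTPase, averaged 15.6 RPM in wild-type inputs and 40.5 RPM in wild-type IPs, against 12.2 and 1.91 RPM in *hrde-2*. Its difference in IP over input between the strains was -4.26 ± 0.33 on the log2 scale (SE, edgeR adjusted p = 3.7e-08). The SNARE gene *ric-4* averaged 12.3 and 30.4 RPM in wild-type and 1.18 RPM in the *hrde-2* IPs, a difference of -4.08 ± 0.30. In the inputs of *mut-2* against wild-type *rab-3* stood at -3.70 ± 0.29 and *ric-4* at -3.16 ± 0.36. In IP over input of *hrde-2* against wild-type the synaptobrevin gene *snb-1* stood at 1.68 ± 0.25. *sng-1* averaged 1.39 RPM in wild-type IPs, its highest level, and 0.186 RPM in *hrde-2* IPs. It could pass the filter on counts through the wild-type IPs alone, which favours a fall, and its counts were few. Its place among the 5 lower genes is therefore no evidence of a fall. These genes were singled out after their values were seen.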
